A study of Arabidopsis thaliana with 35 samples.

Results

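Transcript abundance of 10 genes of starch breakdown was measured in Arabidopsis seedlings after 1 h of cold (10 °C), of heat (37 °C) or of the growth temperature (22 °C). The genes were found in the tables by their locus identifiers, and all 10 of the 37898 genes in the tables had enough signal to be tested at both times of day. They are GWD1 (AT1G10760), PWD (AT5G26570), SEX4 (AT3G52180), BAM1 (AT3G23920), BAM3 (AT4G17090), ISA3 (AT4G09020), DPE1 (AT5G64860), MEX1 (AT5G17520), DPE2 (AT2G40840) and PHS2 (AT3G46970). The plants were Col-0 wild type (WT) and 2 double mutants of the circadian clock, cca1lhy (cca1-1/lhy-20), which carries mutations in the morning factors CCA1 and LHY, and prr7prr9 (prr7-3/prr9-1), which carries mutations in the day-phased repressors PRR7 and PRR9. Whole seedlings were raised for 12 days at 22 °C on medium with sucrose under days and nights of 12 h each, then treated from lights on and sampled at ZT1, or from 5 h after lights on and sampled at ZT6, where ZT counts hours from lights on. WT and cca1lhy were measured at ZT1 with 4 libraries per temperature, except for 3 of WT in the cold, and prr7prr9 with its own WT at ZT6 with 2 libraries per temperature, 35 libraries in all. Each mutant is 1 line, so its clock mutations cannot be told apart from other differences between the lines.

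Plants store part of the carbon fixed by day as starch granules in the chloroplast and degrade them at night. The dikinases GWD1 and PWD put phosphate on glucan chains at the granule surface, which loosens their packing, and the phosphatase SEX4 takes it off again. β-amylases such as BAM1 and BAM3 then cut maltose from the chain ends, the debranching enzyme ISA3 removes branches, and the disproportionating enzyme DPE1 recycles short glucans. Maltose leaves the chloroplast through MEX1, and in the cytosol DPE2 passes its glucose to a heteroglycan that the glucan phosphorylase PHS2 also uses. BAM3 is the main β-amylase of the leaf mesophyll at night, and BAM1 is known from guard cells and from stress. Transcripts of several of these genes follow a daily rhythm, so that the clock and the time of day are part of their regulation.

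In build TAIR10.1 the genes span, from first to last exon, chr3:8641181-8644449 for BAM1 (plus strand), chr4:9604962-9607402 for BAM3 (minus strand), chr1:3580830-3590928 for GWD1 (minus strand), chr5:9261479-9267732 for PWD (plus strand), chr5:25925173-25928879 for DPE1 (minus strand), chr2:17044932-17051062 for DPE2 (plus strand), chr5:5772568-5775417 for MEX1 (minus strand), chr4:5783909-5789100 for ISA3 (plus strand), chr3:19349600-19353728 for SEX4 (minus strand), chr3:17301394-17306633 for PHS2 (minus strand). Only BAM3 and PHS2 share bases with another annotated gene.

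The values are log2 CPM, the log2 of read counts scaled to library size, after the authors added 5 reads to every count and normalized the quantiles separately at each time of day. Libraries held about 1.09 to 11.8 M reads (M for mega) at ZT1 and 11.7 to 30.4 M at ZT6, as recovered from the steps between the values. The lowest value, that of 0 reads, is 1.23 at ZT1 and −1.68 at ZT6, so that the LFC (log2 fold change) of a weakly expressed gene is compressed, most of all at ZT1. ZT1 and ZT6 ran on different flowcells, and levels were not compared between them. The label checks held in most libraries: CCA1 lay between 2.03 and 3.93 log2 CPM in 11 of the 12 cca1lhy libraries against 8.26 to 9.64 in WT at ZT1, but at 5.29 in the library labelled cca1lhy at 22 °C, replicate 2. PRR7 lay between 1.73 and 3.70 in prr7prr9 and between 6.52 and 8.54 in WT at ZT6, whereas PRR9 overlapped between the genotypes at 22 °C (LFC 0.07, adjusted p = 1) and was lower in prr7prr9 at 10 °C (LFC −2.84, adjusted p = 0.00286). In 4 of the 12 libraries at ZT6 more genes lay above the lowest value than in their partners (27329 to 29244), namely WT replicate 2 at 37 °C and, of prr7prr9, replicate 3 at 37 °C, replicate 3 at 22 °C and replicate 2 at 10 °C. The 2 libraries of a ZT6 group are not described as separate cultures, so that p-values there measure only the spread between these samples.

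In WT a β-amylase gene had the largest absolute LFC of the 10 genes in each of the 4 comparisons of a temperature with 22 °C. In WT at ZT1 the heat treatment changed 2 of the 10 genes, with BAM1 upregulated 6.50-fold and BAM3 downregulated 3.01-fold, where 13.3% of all genes tested passed the same test, an absolute LFC over 1 with an adjusted p under 0.05. In the cold at ZT1 none of the 10 passed in WT (1.87% of all genes did), 3 of them had an unadjusted p under 0.05 (13.7% of all genes), and a limma fit on the recovered reads also called none. GLDP1 was the 1 of 8 shoot and root markers that passed in that comparison (LFC −1.30, adjusted p = 0.00176). In WT at ZT6 heat changed BAM1 only (14.4% of all genes), whereas cold changed 6 of the 10 (5.94% of all genes). BAM1 and BAM3 were upregulated in that comparison, and GWD1, PWD, DPE1 and ISA3 were downregulated.

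**Figure D1:**
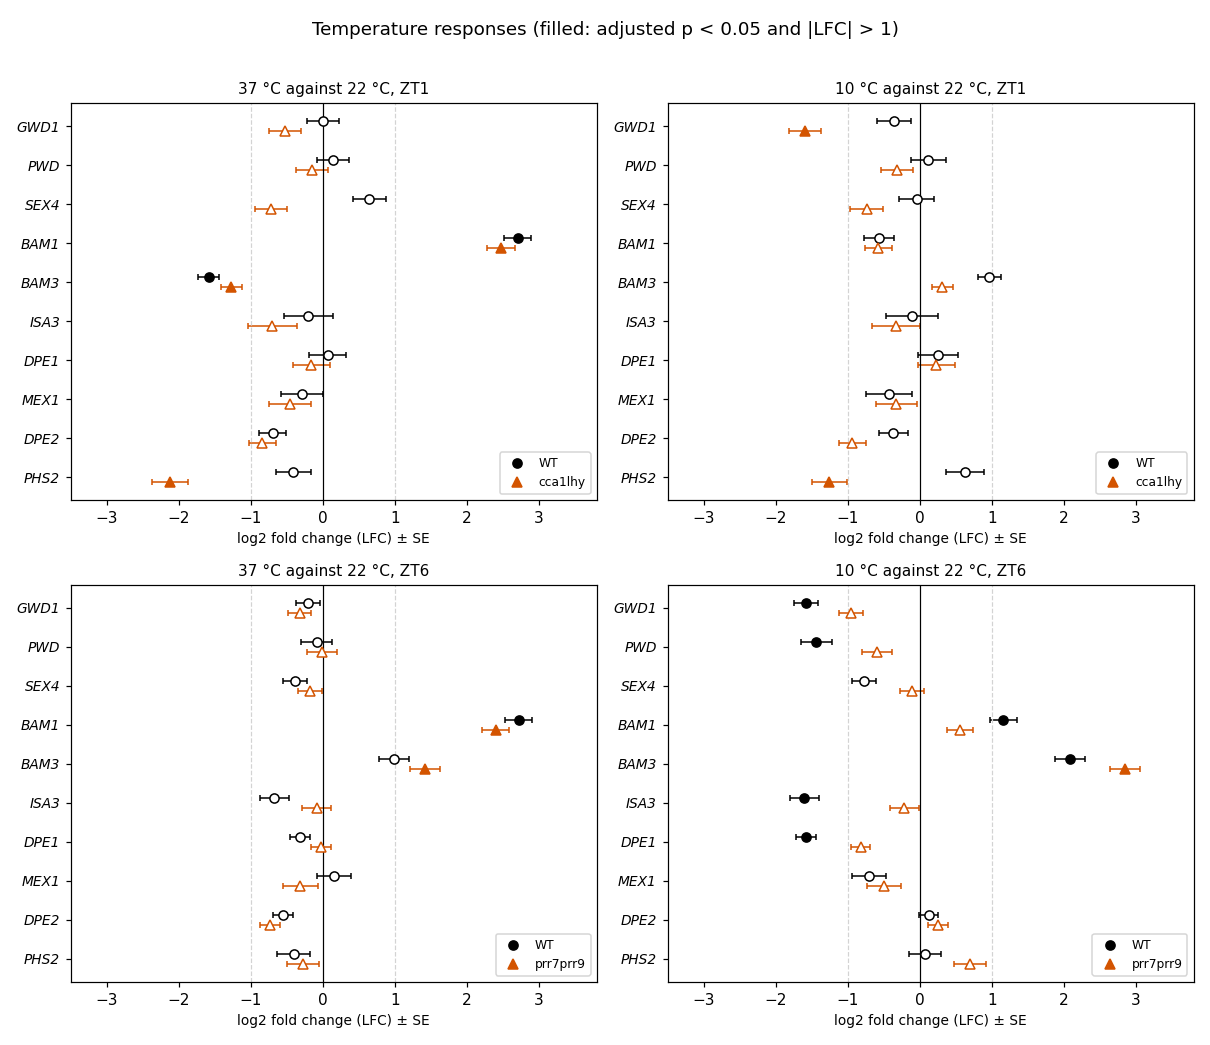
Log2 fold change (LFC, x axis) ± standard error of the 10 genes (y axis) at 37 °C or 10 °C against 22 °C, for WT (circles) and the mutant of the same time (triangles); filled symbols passed the test. BAM1 lies near 2.70 in WT under heat at both times, and BAM3 lies at −1.59 at ZT1 and at 0.99 at ZT6.

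Of the genes that act on granule phosphate, GWD1 and PWD were downregulated by cold in WT at ZT6 and the changes at ZT1 were small. GWD1 had 7.47 and 7.66 log2 CPM at 22 °C and 5.92 and 6.06 at 10 °C in WT at ZT6, so that the groups lay well apart. Its LFC was −1.58 ± 0.16 (adjusted p = 0.000665), a 2.99-fold lower level. PWD, which works on chains that GWD1 has already phosphorylated, had 6.69 and 6.48 at 22 °C and 5.02 and 5.28 at 10 °C (LFC −1.43 ± 0.21, adjusted p = 0.00383). Both WT cold calls were lost with only the groups compared (adjusted p = 0.0976 for GWD1 and 0.127 for PWD). In prr7prr9 the same treatment gave GWD1 8.01 and 7.71 at 22 °C and 6.76 and 7.04 at 10 °C (LFC −0.96 ± 0.16, adjusted p = 0.0114), which stayed short of an LFC of 1. Leaving out single libraries gave LFCs from −1.11 to −0.81. The LFC was −1.11 or −1.09 without prr7prr9 at 22 °C replicate 3 or at 10 °C replicate 2. PWD in prr7prr9 had 7.10 and 6.44 at 22 °C and 6.04 and 6.32 at 10 °C (LFC −0.59 ± 0.21, adjusted p = 0.169). The responses of the genotypes were 0.62 ± 0.23 apart for GWD1 (adjusted p = 0.594) and 0.84 ± 0.30 apart for PWD (adjusted p = 0.571), with 95% intervals from 0.11 to 1.14 and from 0.17 to 1.51. Under heat at ZT6 neither gene passed the test in either genotype.

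At ZT1 GWD1 differed between the genotypes at 22 °C. In WT it had 5.75, 5.34, 5.34 and 5.46 log2 CPM at 22 °C, and in cca1lhy 6.99, 6.23, 7.11 and 7.17, so that every mutant library was above every WT library. The LFC of cca1lhy against WT was 1.40 ± 0.22 (adjusted p = 0.000226). It was 0.87 ± 0.22 at 37 °C (adjusted p = 0.0174) and 0.16 ± 0.24 at 10 °C (adjusted p = 1). Accordingly, cold lowered GWD1 in cca1lhy at ZT1, to 4.96, 4.85, 5.55 and 5.77 (LFC −1.60 ± 0.22, adjusted p = 2.79e-05), while WT at 10 °C had 4.66, 5.39 and 5.31 (LFC −0.36 ± 0.24, adjusted p = 0.611). The difference of these responses, −1.24 ± 0.33, did not pass the test across all genes (adjusted p = 0.479). The lowest cca1lhy value at 22 °C came from the library with the high CCA1 level, and without it the LFC against WT was 1.62. Of the shoot markers GLDP1, a glycine decarboxylase gene of photorespiration, was also lower in cca1lhy at 22 °C (LFC −1.68, adjusted p = 3.5e-05), the other 3 shoot markers and the 4 root markers were not past the test, and the part of GLDP1 in the GWD1 and PHS2 results was not tested. PWD ranged from 4.60 to 5.71 over all 23 libraries of ZT1 and passed the test in no comparison there.

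SEX4 was measured with 1 to 41 reads per library at ZT1 and with 225 to 934 at ZT6. At ZT1 in WT it had 2.13, 2.67, 2.61 and 2.59 log2 CPM at 22 °C and 3.33, 3.43, 2.83 and 2.98 at 37 °C, whereas cca1lhy had 2.66, 3.24, 2.93 and 3.16 at 22 °C and 1.94, 2.55, 2.15 and 2.47 at 37 °C. The LFC under heat was thus 0.64 ± 0.23 in WT (adjusted p = 0.0321) and −0.72 ± 0.23 in cca1lhy (adjusted p = 0.0174), both short of an LFC of 1. Their difference was −1.36 ± 0.32 (adjusted p = 0.0386), and 0.913% of all genes passed that interaction test. The call did not hold in 10 of the 16 fits that left out a single library, those without WT at 22 °C replicates 1, 3 or 4, WT at 37 °C replicates 1 or 2, cca1lhy at 22 °C replicates 2, 3 or 4, or cca1lhy at 37 °C replicates 1 or 3, where the adjusted p lay between 0.054 and 0.0906. With only the groups compared it was 0.0582. On the recovered reads the interaction was −2.42 and did not pass (adjusted p = 0.0695), whereas the heat LFC in cca1lhy was −1.53 (adjusted p = 0.00976) and the LFC of cca1lhy against WT at 37 °C was −1.53 (adjusted p = 0.0354), both past the test. GLDP1 passed the same interaction (LFC 1.52, adjusted p = 0.0224), and its part in the result was not tested. In WT at ZT6 SEX4 had 4.96 and 4.58 at 22 °C, 4.51 and 4.25 at 37 °C and 4.09 and 3.91 at 10 °C, and the cold LFC was −0.77 ± 0.17 (adjusted p = 0.0207). The WT heat responses of the times differed by −1.04 ± 0.28 (adjusted p = 0.0177), but not past the test without WT at 37 °C replicate 3 or WT at 22 °C replicate 2 at ZT6 (adjusted p = 0.0825 and 0.079), without the 4 libraries that stand apart (adjusted p = 0.0631) or on the recovered reads (−1.08, adjusted p = 0.171).

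**Figure D2:**
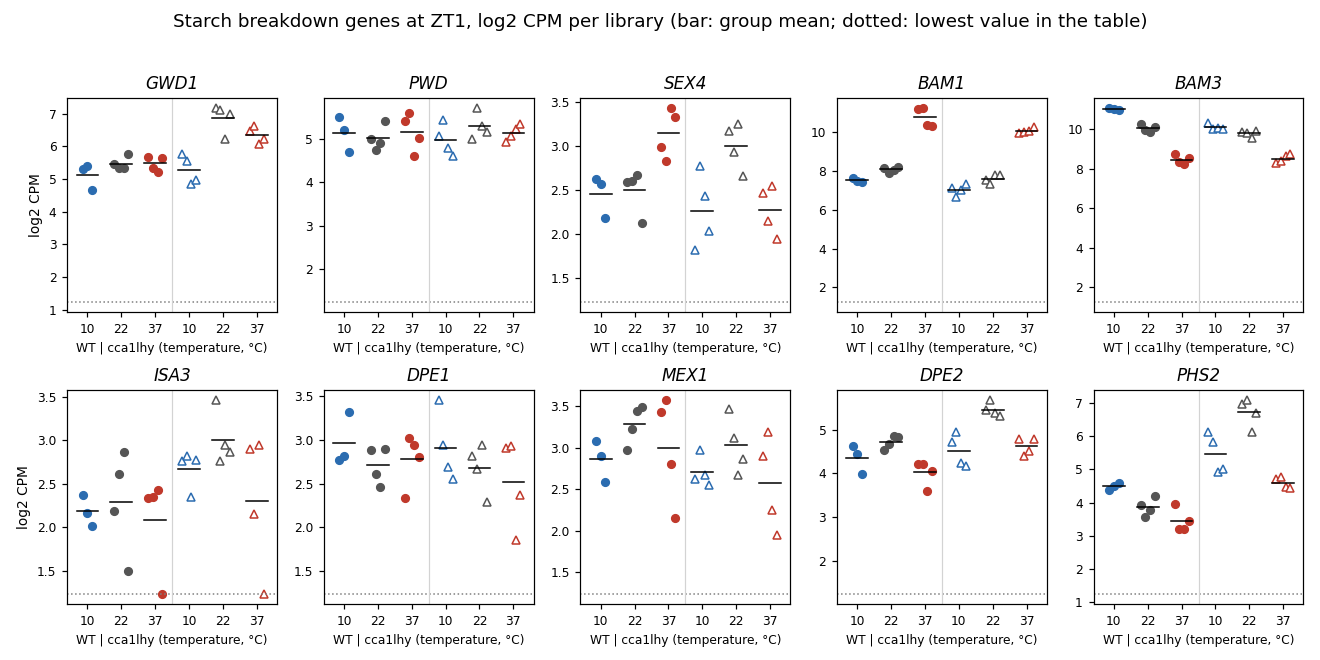
Log2 CPM (y axis) of each gene in the 23 libraries of ZT1 by temperature, for WT (filled circles) and cca1lhy (open triangles); bars are group means, and the dotted line is the lowest value of the table, 1.23. BAM1 lies between 9.98 and 11.24 in the libraries at 37 °C, and PHS2 lies between 6.13 and 7.09 in cca1lhy at 22 °C against 3.57 to 4.20 in WT.

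BAM1 passed the test under heat in every genotype and at both times, although both calls at ZT6 were lost without the 4 libraries that stand apart. At ZT1 it had 8.22, 8.02, 7.92 and 8.13 log2 CPM in WT at 22 °C and 10.32, 10.34, 11.24 and 11.20 at 37 °C (LFC 2.70 ± 0.19, adjusted p = 3.99e-11). In cca1lhy it had 7.80, 7.80, 7.31 and 7.51 at 22 °C and 10.27, 10.05, 10.01 and 9.98 at 37 °C (LFC 2.47 ± 0.19, adjusted p = 2.34e-10). At ZT6 it went from 4.92 and 5.15 to 7.76 and 7.74 in WT (LFC 2.72 ± 0.18, adjusted p = 1.31e-05) and from 5.80 and 5.49 to 7.86 and 8.22 in prr7prr9 (LFC 2.40 ± 0.18, adjusted p = 3.06e-05). No library at 37 °C overlapped with a library at 22 °C of its genotype and time. The WT heat response at ZT6 differed from that at ZT1 by 0.01 ± 0.26, with a 95% interval from −0.53 to 0.55, and the responses of the mutants differed from those of WT by −0.23 ± 0.27 (cca1lhy) and −0.32 ± 0.26 (prr7prr9). Without the 4 libraries that stand apart, the heat LFC at ZT6 was 2.71 in WT and 2.06 in prr7prr9. Markers moved with heat in every group. In WT at ZT1 all 4 shoot markers were lower, with summed levels of 9630 to 11600 CPM against 38100 to 39900, and 1 of the 4 root markers, PYK10. The CPM ranges that follow are likewise sums over all 4 markers of a kind. In cca1lhy 3 of the 4 shoot markers were lower (11200 to 12500 CPM against 29800 to 36800) and 2 of the 4 root markers, PYK10 and PRX44 (367 to 439 CPM against 1250 to 2590). In WT at ZT6 LHCB2.1 alone of the shoot markers passed as lower (sums of 8870 to 9160 CPM against 19600 to 28500). RBCS1A (LFC −1.58), PSBO1 (LFC −1.19) and GLDP1 (LFC −0.67) also lay lower but did not pass. Of the root markers PYK10 alone passed as lower (sums of 479 to 566 CPM against 2390 to 2540). In prr7prr9 2 shoot markers passed as lower, LHCB2.1 and GLDP1 (sums of 8200 to 9710 CPM against 20400 to 24000). RBCS1A (LFC −1.52) and PSBO1 (LFC −1.07) also lay lower but did not pass. Of the root markers PYK10 passed as lower (sums of 407 to 446 CPM against 1890 to 1910). The part of the markers in the heat results was not tested.

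BAM3 responded to heat in opposite directions at the 2 times. In WT at ZT1 it fell from 10.10, 9.85, 9.97 and 10.24 log2 CPM at 22 °C to 8.53, 8.22, 8.34 and 8.72 at 37 °C (LFC −1.59 ± 0.14, adjusted p = 4.18e-09). In cca1lhy it fell from 9.90, 9.57, 9.81 and 9.82 to 8.75, 8.64, 8.37 and 8.26 (LFC −1.27 ± 0.14, adjusted p = 1.93e-07), although on the recovered reads without quantile normalization, where the median of all genes was −0.19, the LFC was −0.81. In WT at ZT6 the values were 5.97 and 6.37 at 22 °C and 7.31 and 7.01 at 37 °C (LFC 0.99 ± 0.21, adjusted p = 0.00915), just under the LFC threshold. Leaving out single libraries gave LFCs from 0.79 to 1.19. The LFC was 1.19 without WT at 22 °C replicate 3 and 1.14 without WT at 37 °C replicate 3. In prr7prr9 at ZT6 BAM3 was upregulated from 6.94 and 6.79 to 8.14 and 8.43 (LFC 1.42 ± 0.21, adjusted p = 0.00148), a call that was lost without the 4 libraries that stand apart (LFC 1.20, adjusted p = 0.186). The WT responses of the times differed by 2.58 ± 0.25 (adjusted p = 4.74e-06), and 9.44% of all genes passed that test. GLDP1 passed it too (difference 1.29, adjusted p = 0.034), and its part in the result was not tested. BAM3 shares bases with AT4G17085 and AT4G06665 on the opposite strand, and the counting is not stated to use strand, so that the counts of BAM3 from the shared bases are uncertain.

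In WT cold raised both β-amylase genes at ZT6, and at ZT1 neither passed the LFC threshold. In WT at ZT6 BAM3 had 5.97 and 6.37 log2 CPM at 22 °C and 8.19 and 8.32 at 10 °C (LFC 2.08 ± 0.21, adjusted p = 0.000594), and prr7prr9 had 6.94 and 6.79 and then 9.51 and 9.92 (LFC 2.85 ± 0.21, adjusted p = 0.000243), the only 1 of the 10 genes to pass in that mutant, where 3.6% of all genes did. The prr7prr9 call was lost without the 4 libraries that stand apart (LFC 2.57) and with only the groups compared (adjusted p = 0.059). The WT calls of both β-amylase genes at ZT6 were lost in the same settings. With only the groups compared the adjusted p was 0.115 for BAM3 and 0.179 for BAM1 in WT. In WT at ZT1 BAM3 had 10.94, 11.01 and 11.06 at 10 °C, above all 4 libraries at 22 °C, with an LFC of 0.97 ± 0.15 (adjusted p = 0.000256) that stayed just short of 1. Over the fits without a single library that LFC ran from 0.90 to 1.04, the latter without WT at 22 °C replicate 4. In cca1lhy at ZT1 it had 10.01, 10.03, 9.99 and 10.32 at 10 °C (LFC 0.31 ± 0.14, adjusted p = 0.284). BAM1 had 6.38 and 6.01 in WT at 10 °C at ZT6, against 4.92 and 5.15 at 22 °C (LFC 1.16 ± 0.18, adjusted p = 0.00562), and 7.41, 7.49 and 7.64 at ZT1, below the 4 libraries at 22 °C (LFC −0.56 ± 0.20, adjusted p = 0.15). Without WT at 10 °C replicate 1 the BAM1 LFC at ZT6 was 0.97. The WT cold responses of the times differed by 1.72 ± 0.27 for BAM1 (adjusted p = 6.07e-05) and by 1.11 ± 0.26 for BAM3 (adjusted p = 0.00704), a test that 10.9% of all genes passed. Of the 8 markers GLDP1 (1.96, adjusted p = 0.00138) and PIP2-4 (1.18, adjusted p = 0.0426) passed it, and their part in the results was not tested. For BAM3 that difference was 0.92 with an adjusted p of 0.0582 without WT at 22 °C replicate 2 at ZT6.

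The 250 bases before the annotated start of these genes are shown because BAM1 and BAM3 carry the largest temperature responses, with none of the searched motifs in either window. The sequences and positions are from RefSeq, build TAIR10.1, 5′ to 3′ on the strand of the gene, BAM1 at chr3:8640931-8641180 (plus strand) and BAM3 at chr4:9607403-9607652 (minus strand).
BAM1: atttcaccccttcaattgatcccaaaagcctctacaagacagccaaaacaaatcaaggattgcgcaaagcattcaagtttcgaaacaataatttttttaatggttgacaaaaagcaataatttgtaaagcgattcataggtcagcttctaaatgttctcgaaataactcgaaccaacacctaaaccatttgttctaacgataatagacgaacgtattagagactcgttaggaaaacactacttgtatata
BAM3: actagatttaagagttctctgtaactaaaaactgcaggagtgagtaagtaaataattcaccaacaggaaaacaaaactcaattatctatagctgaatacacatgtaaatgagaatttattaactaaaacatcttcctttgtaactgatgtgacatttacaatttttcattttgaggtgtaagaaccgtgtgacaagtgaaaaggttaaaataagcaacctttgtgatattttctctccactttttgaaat
Motifs were sought on both strands, namely the evening element AAAATATCT, the CCA1-binding site AAAAATCT, the G-box CACGTG, the C-repeat core CCGAC and the heat shock element, in which GAA, TTC and GAA follow each other with NN between them. They occur in 2.36%, 6.69%, 6.49%, 12.0% and 0.386% of the same windows of 27443 protein-coding genes. Among the 10 genes the evening element was present in PWD and ISA3, the CCA1-binding site in DPE2, the G-box in DPE1 and PHS2, the C-repeat core in ISA3, and the heat shock element in none.

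The debranching enzyme gene ISA3 and the disproportionating enzyme gene DPE1 were downregulated by cold in WT at ZT6 together with GWD1 and PWD. ISA3 had 4.50 and 4.94 log2 CPM at 22 °C and 3.28 and 2.96 at 10 °C (LFC −1.60 ± 0.21, adjusted p = 0.00197). DPE1 had 5.23 and 5.08 at 22 °C and 3.66 and 3.49 at 10 °C (LFC −1.58 ± 0.13, adjusted p = 0.00031). Both calls were lost with only the groups compared (adjusted p = 0.166 for ISA3 and 0.0959 for DPE1). The maltose exporter gene MEX1 had 3.51 and 3.39 at 22 °C and 3.10 and 2.38 at 10 °C (LFC −0.71 ± 0.24, adjusted p = 0.103). Leaving out single libraries gave LFCs from −1.07, without WT at 10 °C replicate 1, to −0.34. In prr7prr9 DPE1 had 4.89 and 4.93 at 22 °C and 4.05 and 4.13 at 10 °C (LFC −0.82 ± 0.13, adjusted p = 0.00948), and ISA3 had 3.67 and 3.95 and then 3.54 and 3.65 (LFC −0.21 ± 0.21, adjusted p = 0.718). At 22 °C the LFC of ISA3 in prr7prr9 against WT was −0.91 ± 0.21, not past the test (adjusted p = 0.2). The cold responses of the genotypes differed by 1.39 ± 0.29 for ISA3 (adjusted p = 0.235) and by 0.76 ± 0.19 for DPE1 (adjusted p = 0.345).

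PWD, ISA3 and DPE1 are shown for the motifs in their windows, in capitals, since these genes fell together in the cold at ZT6. PWD lies at chr5:9261229-9261478 (plus strand) with an evening element, ISA3 at chr4:5783659-5783908 (plus strand) with a C-repeat core and an evening element, and DPE1 at chr5:25928880-25929129 (minus strand) with a pair of G-boxes.
PWD: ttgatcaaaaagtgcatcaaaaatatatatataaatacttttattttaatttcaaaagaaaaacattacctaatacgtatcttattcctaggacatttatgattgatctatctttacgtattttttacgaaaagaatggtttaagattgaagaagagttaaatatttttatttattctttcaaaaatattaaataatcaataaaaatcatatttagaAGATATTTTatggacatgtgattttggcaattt
ISA3: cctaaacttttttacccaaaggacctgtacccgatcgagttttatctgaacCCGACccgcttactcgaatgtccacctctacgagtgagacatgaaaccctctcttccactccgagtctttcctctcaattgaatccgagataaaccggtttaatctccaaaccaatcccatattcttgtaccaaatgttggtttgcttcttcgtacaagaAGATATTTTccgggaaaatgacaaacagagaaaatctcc
DPE1: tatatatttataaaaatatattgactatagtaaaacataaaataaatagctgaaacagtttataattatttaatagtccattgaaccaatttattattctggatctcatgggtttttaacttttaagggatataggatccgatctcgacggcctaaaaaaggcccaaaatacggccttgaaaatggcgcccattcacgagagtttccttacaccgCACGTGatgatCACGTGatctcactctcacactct
The evening elements of PWD and ISA3 lie on the opposite strand and begin 33 and 39 bases before the annotated start. The fourth of these genes, GWD1, has none of the 5 motifs in its window. DPE2 and PHS2, with a CCA1-binding site and a G-box, had cold LFCs of 0.12 and 0.075 in WT at ZT6. A link between motifs and responses was not tested.

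The 6 calls of WT in the cold at ZT6 rest on a spread shared by all 12 libraries of that time. With only the 4 WT libraries at 10 °C and 22 °C in the fit, or without the 4 libraries that stand apart, none of the 10 genes passed, and 0.132% or 0.106% of all genes did, at the same LFCs. Root markers moved in the same comparison: PRX44 (LFC 1.28, adjusted p = 0.0489) and PIP2-4 (LFC 1.61, adjusted p = 0.00319) were higher, PYK10 and EXPA7 were not past the test, and the summed level of the 3 markers other than PYK10 was 33.0 to 39.7 CPM at 10 °C against 13.0 to 13.3 at 22 °C. With PYK10 the sums were 2690 to 4960 CPM against 2390 to 2540. None of the 4 shoot markers (RBCS1A, LHCB2.1, PSBO1 and GLDP1) passed, at 20700 to 25200 CPM against 19600 to 28500, and no marker was at the lowest value. The part of the markers in the result was not tested, and in whole seedlings fewer cells of a type cannot be told apart from less RNA per cell. In prr7prr9, where BAM3 was also upregulated by cold, none of the 8 markers passed.

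At ZT1 ISA3, DPE1 and MEX1 were covered by 0 to 65 reads per library and passed the test in no comparison. ISA3 lay between 1.23 and 3.46 log2 CPM, DPE1 between 1.86 and 3.46, and MEX1 between 1.94 and 3.57 over the 23 libraries, and a change of these genes at ZT1 was not detectable at this depth unless large. The WT cold responses of the times differed by −1.55 ± 0.32 for PWD (adjusted p = 0.0012), −1.83 ± 0.31 for DPE1 (adjusted p = 8.48e-05), −1.49 ± 0.42 for ISA3 (adjusted p = 0.0162) and −1.22 ± 0.29 for GWD1 (adjusted p = 0.00407). For ISA3 this difference no longer passed without WT at 10 °C replicate 4 or WT at 22 °C replicate 1 at ZT1, or WT at 22 °C replicate 3 at ZT6 (adjusted p = 0.0541, 0.0589 and 0.0568), or on the recovered reads (−1.59, adjusted p = 0.337). Values close to the lowest of the table limit how far these genes could fall at ZT1, so that for DPE1 and ISA3 a smaller response there cannot be told apart from a lack of reads.

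**Figure D3:**
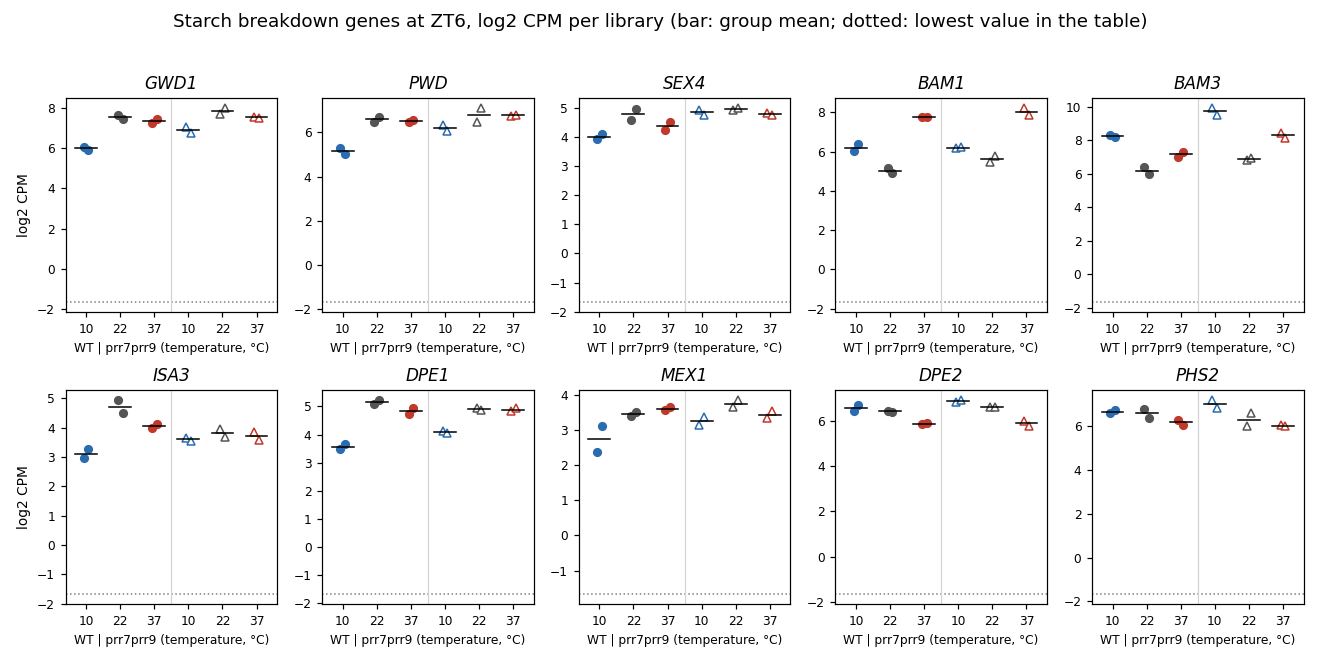
Log2 CPM (y axis) of each gene in the 12 libraries of ZT6 by temperature, for WT (filled circles) and prr7prr9 (open triangles); bars are group means, and the dotted line is the lowest value of the table, −1.68. In WT at 10 °C GWD1, PWD, ISA3 and DPE1 lie below and BAM1 and BAM3 above their levels at 22 °C.

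Of the cytosolic genes, PHS2 differed most between cca1lhy and WT at ZT1. At 22 °C it had 4.20, 3.77, 3.57 and 3.92 log2 CPM in WT and 6.69, 6.13, 7.09 and 6.97 in cca1lhy (LFC 2.86 ± 0.24, adjusted p = 2.53e-08), a 7.26-fold higher level. At 37 °C it had 3.44, 3.21, 3.19 and 3.96 in WT and 4.44, 4.46, 4.78 and 4.72 in cca1lhy (LFC 1.15 ± 0.24, adjusted p = 0.00456). At 10 °C it had 4.59, 4.50 and 4.37 in WT and 5.00, 4.91, 5.83 and 6.13 in cca1lhy (LFC 0.98 ± 0.26, adjusted p = 0.0394), just short of an LFC of 1, and it passed without cca1lhy at 10 °C replicate 1 (LFC 1.14) or 2 (LFC 1.17). Over the fits without a single library the LFC ran from 0.76 to 1.17 and the adjusted p from 0.0133 to 0.169. No cca1lhy library overlapped with a WT library at any of these temperatures. Without the cca1lhy library at 22 °C with the high CCA1 level, which was also the lowest for PHS2, the LFC at 22 °C was 3.06. Part of PHS2 overlaps AT3G46980 on the same strand, so that counts from the shared bases are uncertain.

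Both temperature treatments lowered PHS2 in cca1lhy at ZT1, and in WT neither passed the test. Heat gave an LFC of −2.12 ± 0.24 in cca1lhy (adjusted p = 2.57e-07) and of −0.41 ± 0.24 in WT (adjusted p = 0.21), and the responses differed by −1.71 ± 0.35 (adjusted p = 0.0146). PHS2 had 11 to 66 reads per library in WT at 22 °C and 6 to 14 at 37 °C. In cca1lhy it had 129 to 443 and 20 to 41. The 5 reads added to every count compress the LFC more at the lower counts of WT, and their part in the difference was not tested. Cold gave −1.25 ± 0.24 in cca1lhy (adjusted p = 0.00157), although the ranges at 10 °C and 22 °C overlapped near 6.13. That call was lost with only the groups compared (adjusted p = 0.0731). In WT cold gave 0.62 ± 0.26 (adjusted p = 0.255). Here the difference of the responses, −1.88 ± 0.36, did not pass (adjusted p = 0.0789), where 0.0117% of all genes did. It passed without cca1lhy at 22 °C replicate 2 (adjusted p = 0.0406) or cca1lhy at 10 °C replicate 4 (adjusted p = 0.0281). Over the fits without a single library it ran from −2.10 to −1.69, with an adjusted p of up to 0.38. Fitted on the recovered reads without quantile normalization, the heat difference was −1.46 (adjusted p = 0.074).

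DPE2 passed the LFC threshold in no comparison with all libraries in the fit. At ZT1 it had 4.84, 4.85, 4.66 and 4.54 log2 CPM in WT at 22 °C and 5.31, 5.39, 5.68 and 5.45 in cca1lhy (LFC 0.74 ± 0.19, adjusted p = 0.0199). Heat gave an LFC of −0.70 ± 0.19 in WT (adjusted p = 0.00518) and of −0.84 ± 0.19 in cca1lhy (adjusted p = 0.00105), with all 4 libraries at 37 °C below those at 22 °C in each genotype. The heat responses of the genotypes differed by −0.14 ± 0.26 (adjusted p = 0.867). At ZT6 the heat LFC was −0.55 ± 0.13 in WT (adjusted p = 0.0176) and −0.73 ± 0.13 in prr7prr9 (adjusted p = 0.00481). Cold in cca1lhy at ZT1 gave −0.93 ± 0.19 (adjusted p = 0.00193), and without cca1lhy at 10 °C replicate 3 or 4 this was −1.07 or −1.003 and passed. Over the fits without a single library the LFC ran from −1.07 to −0.82. PHS2 and DPE2 at ZT6 passed the test for none of the cold or genotype comparisons, with levels between 5.99 and 7.19 and between 5.80 and 6.94 log2 CPM.

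Counted over the 10 genes, cca1lhy differed from WT at ZT1 in 2 genes at 22 °C (GWD1 and PHS2, 1.72% of all genes), in 1 at 37 °C (PHS2, 2.13%) and in none at 10 °C (1.57%), where 3 had an unadjusted p under 0.05 (10.4% of all genes) and the recovered reads also gave no call. Heat in cca1lhy changed 3 of the 10 (BAM1, BAM3 and PHS2, 12.7% of all genes) and cold 2 (GWD1 and PHS2, 2.15%). BAM3 was 0.92 ± 0.15 lower on the log2 scale at 10 °C in cca1lhy than in WT (adjusted p = 0.000599), and BAM1 was 0.70 ± 0.19 lower at 37 °C (adjusted p = 0.026), both short of the LFC threshold. At ZT6 heat in prr7prr9 changed BAM1 and BAM3 (14.1% of all genes).

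Between prr7prr9 and WT none of the 10 genes passed at 22 °C (0.286% of all genes) or 37 °C (0.145%) and BAM3 alone passed at 10 °C (0.141%). There BAM3 had 9.51 and 9.92 log2 CPM in prr7prr9 and 8.19 and 8.32 in WT (LFC 1.46 ± 0.21, adjusted p = 0.0435). Leaving out any 1 of these 4 libraries ended the call, with LFCs from 1.25 to 1.66 and adjusted p from 0.105 to 0.518. At 37 °C BAM3 had 8.14 and 8.43 in prr7prr9 and 7.31 and 7.01 in WT (LFC 1.12 ± 0.21, adjusted p = 0.125). At 10 °C all 10 genes had an LFC above 0, with a median of 0.51 against 0.01 over all genes tested, and for all but BAM1 the prr7prr9 libraries lay above those of WT, a separation in this direction that 20.4% of all genes showed. Of the 18 other starch breakdown genes described below 13 had an LFC above 0 (median 0.29), and of the 19 starch synthesis genes 15 (median 0.29). PIP2-4 was lower in prr7prr9 than in WT in this comparison (LFC −1.66, adjusted p = 0.0392), and its part in the result was not tested. An unadjusted p under 0.05 was reached by 3 of the 10 genes at 22 °C (6.8% of all genes), 2 at 37 °C (5.68%) and 7 at 10 °C (9.89%). The 10 genes were read in the same 2 libraries per group and are not independent observations, here or for the differences of responses below.

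None of the 10 genes passed for the difference between prr7prr9 and WT in the response to heat (0.00321% of all genes did, and 0 of the 10 had an unadjusted p under 0.05, against 3.48% of all genes) or to cold (0.0835% of all genes, and 7 of the 10 with an unadjusted p under 0.05, against 7.17% of all genes).

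**Figure D4:**
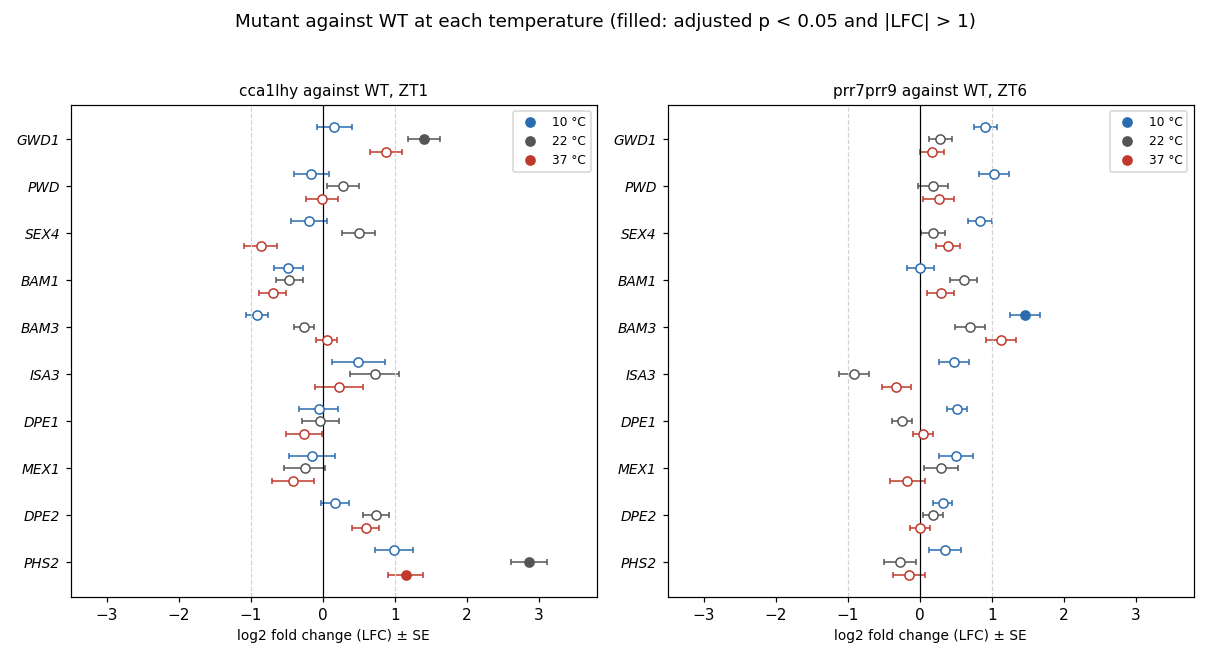
Log2 fold change (LFC, x axis) ± standard error of the 10 genes (y axis) in the mutant against WT at 10 °C, 22 °C and 37 °C, for cca1lhy at ZT1 and prr7prr9 at ZT6; filled circles passed the test. PHS2 lies at 2.86 in cca1lhy at 22 °C, and the 10 °C values of prr7prr9 lie at or above 0.01 for every gene.

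Per kilobase of exon, and within a time, the β-amylase genes had the highest levels in WT at 22 °C at ZT1, and GWD1 had the highest in WT at 22 °C at ZT6. At ZT1 in that group BAM3 had 500.0 CPM per kilobase and BAM1 107, and the other 8 genes lay between 1.78 (ISA3) and 8.82 (GWD1). At ZT6 the order in WT at 22 °C ran from GWD1 (37.6) and BAM3 (34.3) over PHS2 (30.0), DPE2 (25.6), PWD (24.6), DPE1 (17.6), SEX4 (13.7), BAM1 (13.0) and ISA3 (9.59) to MEX1 (6.19), and neighbours in this order were not tested. In the other 5 groups of ZT6 a β-amylase gene was highest, BAM1 in WT at 37 °C (85.5, with BAM3 at 68.2 and GWD1 at 32.6) and BAM3 in WT at 10 °C (145, with PHS2 next at 31.6). In prr7prr9 BAM3 was highest at each temperature, with 55.4 at 22 °C, 149 at 37 °C and 399 at 10 °C, followed by GWD1 (46.0), BAM1 (105) and PHS2 (40.3). The low levels at ZT1 include the 5 reads added to every count.

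Among 18 other genes of starch breakdown, heat in WT at ZT1 raised AMY2, an α-amylase (LFC 1.48 ± 0.19, adjusted p = 1.16e-06), and lowered BAM8, a β-amylase-like nuclear protein (LFC −1.27 ± 0.26, adjusted p = 0.000388). AMY2 also passed under heat at ZT6 in WT (LFC 2.00 ± 0.33, adjusted p = 0.00275). Cold lowered the chloroplast α-amylase AMY3 in WT at ZT1 (LFC −1.30 ± 0.29, adjusted p = 0.00839), and at ZT6 it lowered the debranching enzyme LDA (LFC −1.72 ± 0.20, adjusted p = 0.00111) and raised BAM6 (LFC 1.51 ± 0.36, adjusted p = 0.0319). These ZT6 calls, and those of the starch synthesis genes below, rest on the spread shared by all libraries of that time. They were not followed gene by gene through the alternative fits. The median LFC of the 18 was −0.14 under heat and −0.23 in the cold at ZT1, and 0.07 and −0.30 at ZT6, against −0.06, 0.01, 0.00 and 0.00 over all genes. In cca1lhy at 22 °C 2 of the 18 were higher and 2 lower than in WT, with AMY3 at 1.56 ± 0.27 (adjusted p = 0.000648) and BAM9, a β-amylase without catalytic activity of its own, at −2.55 ± 0.21 (adjusted p = 1.7e-08). In prr7prr9 BAM9 was the 1 gene of the 18 that passed, higher at 22 °C (LFC 1.53 ± 0.14, adjusted p = 0.00129) and at 37 °C (LFC 1.24 ± 0.14, adjusted p = 0.013).

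Among 19 genes of starch synthesis, GBSS1, the granule-bound synthase that makes amylose, moved most. Heat lowered it in WT at ZT1 (LFC −1.89 ± 0.15, adjusted p = 4.92e-10), together with the starch synthase SS3 (LFC −1.14 ± 0.21, adjusted p = 0.000171), and none of the 19 passed under heat at ZT6. In the cold at ZT6 GBSS1 rose (LFC 3.47 ± 0.16, adjusted p = 1.86e-05), and SS4 (LFC −1.35 ± 0.14, adjusted p = 0.000795) and the branching enzyme BE3 (LFC −1.16 ± 0.18, adjusted p = 0.00467) fell. In the cold at ZT1 APL3, a large subunit of ADP-glucose pyrophosphorylase, was the 1 gene that passed (LFC −1.39 ± 0.28, adjusted p = 0.00265). The prr7prr9 level of GBSS1 exceeded that of WT at 22 °C (LFC 2.33 ± 0.16, adjusted p = 0.000357) and 37 °C (LFC 1.83 ± 0.16, adjusted p = 0.00295), and in cca1lhy at 10 °C it was below the WT level (LFC −1.27 ± 0.16, adjusted p = 1.97e-05). In cca1lhy at 37 °C SS4 was higher (LFC 1.32 ± 0.25, adjusted p = 0.00132). The median LFC of the 19 was −0.31 under heat and −0.22 in the cold at ZT1, and −0.05 and 0.09 at ZT6.

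Over the 12 group means, each time centred on its own mean, the pattern of BAM1 was most like that of ECT6 (Pearson's r = 0.994), NF-YA7 (r = 0.989) and AT2G31560 (r = 0.983) among 6530 genes. BAM3 was most like CYP72A15 (r = 0.963), PK1 (r = 0.957) and HYH (r = 0.945), and GWD1 was most like AT5G28430 (r = 0.854), OFP16 (r = 0.839) and AT2G26215 (r = 0.837). Among the 10 genes themselves r ran from −0.595 for BAM1 and DPE2 to 0.86 for PWD and DPE1. These are descriptions over 12 means that share libraries and normalization.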

How the data were processed

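Poly(A) mRNA of whole seedlings was sequenced as single-end 75 base reads. Per the study's methods and the submitters' processing notes, the authors trimmed reads with cutadapt, aligned them with TopHat2 (version 2.0.14, on Bowtie2 version 2.2.5) to the TAIR10 genome, counted them over Araport11 exons, added 5 to each count, computed normalization factors with edgeR, and deposited log2 CPM values from voom with quantile normalization, separately for ZT1 and ZT6. Whether counting used strand is not given in the sources used here. The deposited columns of fold changes and adjusted p-values were not used.

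Here, limma 3.58.1 (R 4.3.3) with a mean-variance trend was fitted to the log2 CPM of all 6 groups of a time. A gene was tested where 3 or more libraries of ZT1 (25727 genes), or 2 or more of ZT6 (31135 genes), exceeded the lowest value, with Benjamini-Hochberg adjustment over all of them. A call needed an adjusted p under 0.05 and, except for differences of responses, an absolute LFC over 1. Differences between ZT6 and ZT1 used 25631 genes tested at both. Reads were recovered from the steps between values, exactly up to 200 and as estimates above. Libraries at ZT6 carry the replicate numbers of the table, which at 22 °C and 37 °C differ from those of the labels. Scripts were tested on simulated data. The members and lists were chosen with earlier results of these data known. All 10 genes are named, and of each other list up to 4 called genes per WT temperature comparison and up to 2 per genotype comparison, those with the largest absolute LFC.

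Of 15 pairs of groups at ZT1, the correlations of same-numbered libraries were all over 0.1 only for WT at 10 °C and 22 °C (0.101 to 0.242). Correlations this low do not establish pairing there, and the check does not exclude it in the other pairs. Alternatives were no trend, no filter, a stricter filter, fits of only the groups compared, recovered reads, a replicate block and leaving out single libraries. A fit without the 4 libraries of ZT6 that stand apart, and a block on the numbers of the ZT6 table, were chosen after seeing the data.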

Additional observations from a re-analysis of the deposited data

Results flagged for a closer look

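In 4 of 50 groups of 4 libraries and single genes, 1 library lay far from the other 3 by Dixon's test, which chance gives in about 5% of groups. These were BAM3 in cca1lhy at 10 °C, replicate 4 (10.32 log2 CPM), ISA3 in cca1lhy at 10 °C, replicate 2 (2.34), SEX4 in WT at 22 °C at ZT1, replicate 1 (2.13), and ISA3 in WT at 37 °C at ZT1, replicate 1 (1.23, the lowest value of the table).

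The heat responses of cca1lhy and WT at ZT1 differed for PHS2 by −1.71 and for SEX4 by −1.36 on the log2 scale. The WT heat responses at ZT6 and ZT1 differed for BAM3 by 2.58 and for SEX4 by −1.04. The WT cold responses at ZT6 and ZT1 differed for BAM1 by 1.72, BAM3 by 1.11, GWD1 by −1.22, PWD by −1.55, DPE1 by −1.83 and ISA3 by −1.49. The time of day and the sequencing run cannot be told apart in the differences between ZT6 and ZT1.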

How the results depend on the processing

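No value changed sign among the calls. The number of the 10 genes called moved by over 1.5 times, or lost or gained a gene where named, as follows, and the cause was not tested unless named. With only the groups compared, which leaves fewer samples, it went from 2 to 1 for cca1lhy in the cold at ZT1 and for the difference of the heat responses of cca1lhy and WT, from 6 to 0 for WT in the cold at ZT6, and from 1 to 0 for prr7prr9 in the cold and for prr7prr9 against WT at 10 °C. On recovered reads it went from 1 to 2 for cca1lhy against WT at 37 °C and for WT under heat at ZT6, from 2 to 0 for the difference of heat responses at ZT1, and from 2 to 1 for the difference of the WT heat responses of the times. For the difference of the WT cold responses it went from 6 to 5, without ISA3, and for cca1lhy under heat it stayed at 3 with SEX4 called and BAM3 lost. Without a filter it went from 2 to 1 for the difference of heat responses at ZT1, and without a filter or without the trend from 1 to 0 for prr7prr9 against WT at 10 °C. The stricter filter, which tests fewer genes, gave 1 in place of 0 for the difference of cold responses at ZT1 and for prr7prr9 against WT at 37 °C, and 2 in place of 1 for prr7prr9 against WT at 10 °C. Without the 4 libraries of ZT6 that stand apart, which leaves fewer samples, it went from 1 to 0 for WT under heat, 6 to 0 for WT in the cold, 2 to 0 for prr7prr9 under heat, 1 to 0 for prr7prr9 in the cold and against WT at 10 °C, and 2 to 1 for the difference of the WT heat responses. Leaving out single libraries gave 0 to 1 for WT in the cold at ZT1 (1 without WT at 22 °C replicate 4), for cca1lhy against WT at 10 °C and for the difference of cold responses at ZT1, 1 to 2 for the difference of heat responses at ZT1, for WT under heat at ZT6, for prr7prr9 in the cold and for the difference of the WT heat responses of the times, 0 to 0 for prr7prr9 against WT at 10 °C, 2 to 3 for cca1lhy in the cold at ZT1 and 5 to 6 for the difference of the WT cold responses. Without WT at 22 °C replicate 3 at ZT6 the last count stayed at 6 with SEX4 called (−0.92, adjusted p = 0.0487) and ISA3 lost, and without WT at 10 °C replicate 1 at ZT6 the WT cold count stayed at 6 with MEX1 called and BAM1 lost. Reads limit SEX4, MEX1, DPE1 and ISA3 at ZT1, and PHS2 in WT at 22 °C and 37 °C at ZT1.

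With the replicate number as a block at ZT1, PHS2 passed for cca1lhy against WT at 10 °C (LFC 1.00, adjusted p = 0.0203), 1 call in place of 0, and no other call changed. For WT at 10 °C against 22 °C at ZT1, where the correlations of same-numbered libraries were all over 0.1, 0 genes passed with or without the block. The numbers gave correlations from −0.331 to 0.292 over 55 pairs of same-numbered libraries, 16 of them over 0.1, and 41 of 110 comparisons of a library with another group were closest to its own number. At ZT6 the block used the numbers of the table. BAM3 was then lost for prr7prr9 against WT at 10 °C (LFC 1.46, adjusted p = 0.0827), 0 calls in place of 1, MEX1 passed in WT in the cold (LFC −1.02, adjusted p = 0.0356), 7 in place of 6, and no other call changed. The 7 pairs of groups that share both numbers gave correlations from −0.398 to 0.298, 4 of them over 0.1, and with 2 libraries per group they do not establish pairing.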
